A study of Mus musculus with 4 samples.

Results

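Foxp3 regulatory T cells of the mouse liver were picked out of a droplet single-cell RNA sequencing data set by the transcripts each cell barcode held. A barcode was kept with at least 250 detected genes and at most 25% of its UMIs from mitochondrially encoded genes. A UMI (unique molecular identifier) stands for 1 captured transcript. A kept barcode was a member with at least 1 UMI of Foxp3, at least 1 UMI over Cd3d, Cd3e, Cd3g and Trac (parts of the T cell receptor complex), and 0 UMIs of Cd8a, Cd8b1 and Cd79a. This gave 58 members of 24030 kept barcodes, of which 11025 were T cells by the receptor genes and the absence of Cd79a. The rule used the UMIs of those genes, so their levels in the members describe the choice and support nothing.

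The livers came from male mice aged 24 weeks, of a strain with a floxed Cyr61 gene (Cyr61fl/fl), and all had been fed for 12 weeks on a NASH diet, which is used to produce steatohepatitis. The 2 groups were Control and Cyr61 KO, with 2 libraries each, and the labels leave unsaid which cells carried the deletion. Livers were kept frozen in serum with DMSO, and after thawing and digestion dead cells were taken out on a column. The labels do not say whether each library came from a separate animal, so p-values here measure only the spread between these libraries.

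Regulatory T cells restrain other immune cells, and their identity rests on the transcription factor Foxp3. They take up interleukin 2 through the high-affinity receptor chain encoded by Il2ra, and they carry Ctla4, a receptor that competes with Cd28 for ligands on antigen-presenting cells. Those in tissues often carry Gata3, Klrg1 and Il1rl1 (the receptor of interleukin 33), and some make the growth factor Areg, while resting cells that recirculate through lymph nodes carry Ccr7.

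Foxp3, the gene that defines the members, lies on chromosome X at 7573644 to 7595245 on the plus strand (GENCODE M21, GRCm38). RefSeq lists more than one start for it, and the 250 bases before each of the starts in its GRCm38.p6 promoter table are shown because every member was chosen by this gene's transcripts. In the first (chrX:7579426-7579675, plus strand) the capitals mark the letters TATAAA. In the second (chrX:7580233-7580482, plus strand) they mark a match to TTCNNNGAA, the core letters bound by STAT factors such as STAT5, which acts below the interleukin 2 receptor.
Foxp3 promoter 1: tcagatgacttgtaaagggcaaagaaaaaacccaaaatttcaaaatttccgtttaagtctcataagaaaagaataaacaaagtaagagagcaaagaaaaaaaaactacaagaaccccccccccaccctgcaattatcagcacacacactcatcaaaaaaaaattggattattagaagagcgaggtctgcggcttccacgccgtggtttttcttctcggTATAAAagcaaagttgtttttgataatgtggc
Foxp3 promoter 2: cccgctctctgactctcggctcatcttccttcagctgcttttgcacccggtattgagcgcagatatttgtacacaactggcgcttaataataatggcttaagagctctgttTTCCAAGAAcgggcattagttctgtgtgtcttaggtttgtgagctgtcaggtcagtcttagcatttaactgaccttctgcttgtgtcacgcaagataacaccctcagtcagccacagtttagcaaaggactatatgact
The third motif searched, TGTTTAC, the core letters of forkhead factors, was found in neither window. All were searched on both strands. Of 32851 promoters of the same length in the table, 12.4% held TATAAA, 7.02% held TTCNNNGAA and 3.17% held TGTTTAC. A match describes the letters only. The table's windows for Il2ra and Ctla4 held none of the 3 motifs, and Ikzf2 is named here without one.

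The members numbered 8 in Control 1, 23 in Control 2, 16 in KO 1 and 11 in KO 2. Foxp3 was captured sparsely: the 4 libraries held 117 Foxp3 UMIs in 82 barcodes, and all of these barcodes were kept. Of the 24 that were left out, 7 had no UMI of the T cell receptor genes, 7 had Cd8 and 10 had Cd79a, a part of the B cell receptor. The members held 83 Foxp3 UMIs. The cells at the edge of the rule were the 38 with a single Foxp3 UMI, against 15 with 2 UMIs and 5 with 3 UMIs, the highest number seen. Free RNA can put a UMI into a cell that does not express the gene, so the share of cells with Foxp3 was set beside cells that should lack it. It was 0.876% of T cells without Cd8 (58 of 6624), 0.159% of Cd8 T cells (7 of 4401) and 0.0180% of B cells (1 of 5549). The median depth per library was 1219.5 to 3129 UMIs in T cells without Cd8, 1781 to 4079 in Cd8 T cells and 1162 to 2434 in B cells.

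Of the marker genes named for these cells besides Foxp3, Ctla4 was seen in most members, and Il2ra and Cd4 in a minority. Ctla4 was found in 48 of 58 members (82.8%, exact 95% interval 70.6 to 91.4%) and Ikzf2, which encodes the Foxp3 partner Helios, in 41 (70.7%, interval 57.3 to 81.9%). Il2ra was found in 16 (27.6%, interval 16.7 to 40.9%). At least 1 of these 3 genes was seen in 56 members, at least 2 in 39 and all 3 in 10. Cd4 itself was seen in 19 members (32.8%): 0 of 8 in Control 1, 10 of 23 in Control 2, 6 of 16 in KO 1 and 3 of 11 in KO 2. In Control 1, where 0 of 141 T cells with Cd4 and without Cd8 had Foxp3, the call of a Cd4 lineage cell therefore rests on the absence of Cd8 alone. All intervals cover counting error only.

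**Figure D1:**
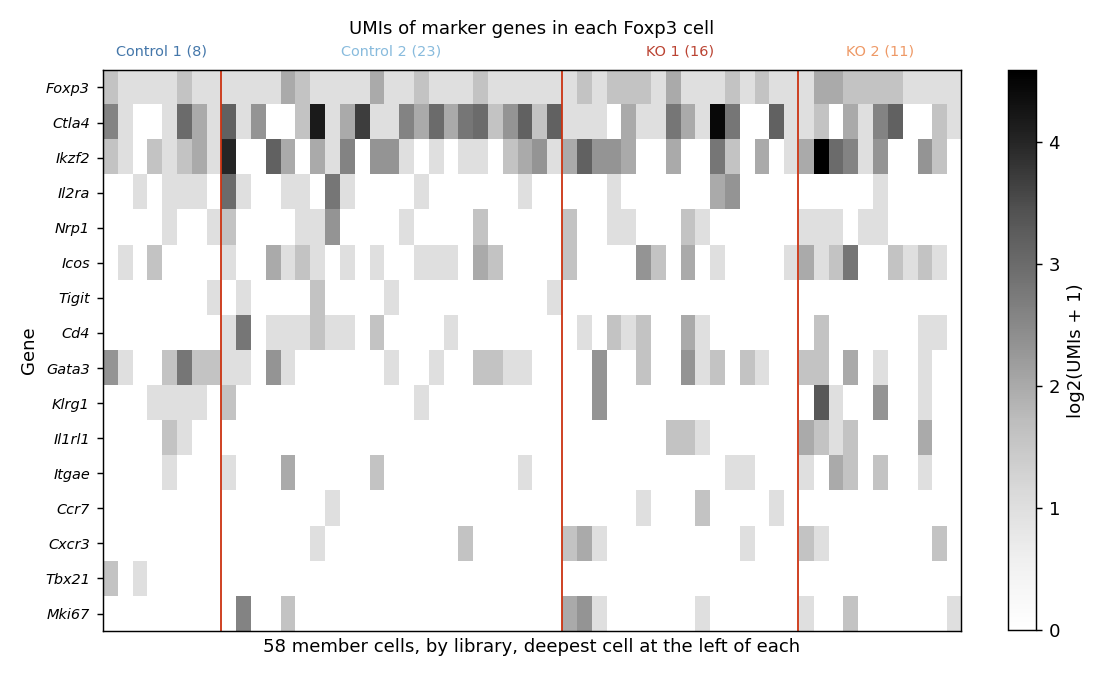
UMIs of 16 marker genes (rows) in each of the 58 members (columns, grouped by library, deepest cell at the left of each group). Shading is log2(UMIs + 1). Ctla4 and Ikzf2 fill most columns in all 4 libraries, while Klrg1, Il1rl1 and Ccr7 are seen in few cells.

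The members were shallow. Their median depth was 1875 UMIs in Control 1, 2160 in Control 2, 2659 in KO 1 and 3003 in KO 2, and 54 of 58 had at least 1000 UMIs. Both KO libraries thus had deeper members than both Control libraries. All kept barcodes had medians of 1225, 2241, 1913 and 2869 UMIs in the same order. Summed over members, the libraries gave 22084, 61754, 50356 and 40733 UMIs. In every sum a lower level can mean fewer cells with the transcript or less of it per cell, and these cannot be told apart for sparse genes. Between 6 and 22 barcode sequences were shared between pairs of libraries, and 1 member's barcode recurred in another library, where it was not a member. The targeted gene, listed under its current symbol Ccn1, was captured with 184 and 149 UMIs over all barcodes of Control 1 and 2, with 0 in KO 1 and with 12 in KO 2. KO 2 thus held some Ccn1 transcript. The members held 0 Ccn1 UMIs in all 4 libraries, which cannot show whether they carried the deletion.

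The share of T cells that were regulatory T cells overlapped between the groups. The share was 0.371% in Control 1 (8 of 2156, exact 95% interval 0.160 to 0.730%) and 0.663% in Control 2 (23 of 3469, interval 0.421 to 0.993%). It was 0.533% in KO 1 (16 of 3000, interval 0.305 to 0.865%) and 0.458% in KO 2 (11 of 2400, interval 0.229 to 0.819%). Both KO values lay between the Control values. The means were 0.517% ± 0.206 in Control and 0.496% ± 0.0530 in KO (SD, n = 2 libraries each; exact two-sided permutation p = 1, where the smallest p this design allows is 0.333). As a share of all kept barcodes the members made up 0.170% and 0.324% in Control and 0.224% and 0.217% in KO (exact permutation p = 1, n = 2 each).

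Depth enters these shares, because a cell is called only once a Foxp3 UMI is captured. When every barcode was thinned to 1000 UMIs and shallower ones were left out (1807, 1526, 1574 and 537 barcodes in library order), the shares were 0.149%, 0.412%, 0.394% and 0.248%. They rested on 2, 11, 9 and 5 cells. The groups again overlapped (exact permutation p = 1, n = 2 each). The difference of the group means took either sign over the thinning depths tried, and Control 1, with the fewest members, held the lowest value at 1000 UMIs. At 1500 UMIs the shares were 0.328% in both Control libraries and 0.327% and 0.296% in KO, which did not overlap (exact permutation p = 0.333, n = 2 each). With at least 2 Foxp3 UMIs asked of a member the order turned: Control 1 and 2 held 0.0928% and 0.144%, below KO 1 and 2 at 0.233% and 0.250%, from 2, 5, 7 and 6 cells, again without overlap (exact permutation p = 0.333, n = 2 each). KO members were deeper, and the part of depth in this share was not tested. No share could reach a p under 0.333 in this design.

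**Figure D2:**
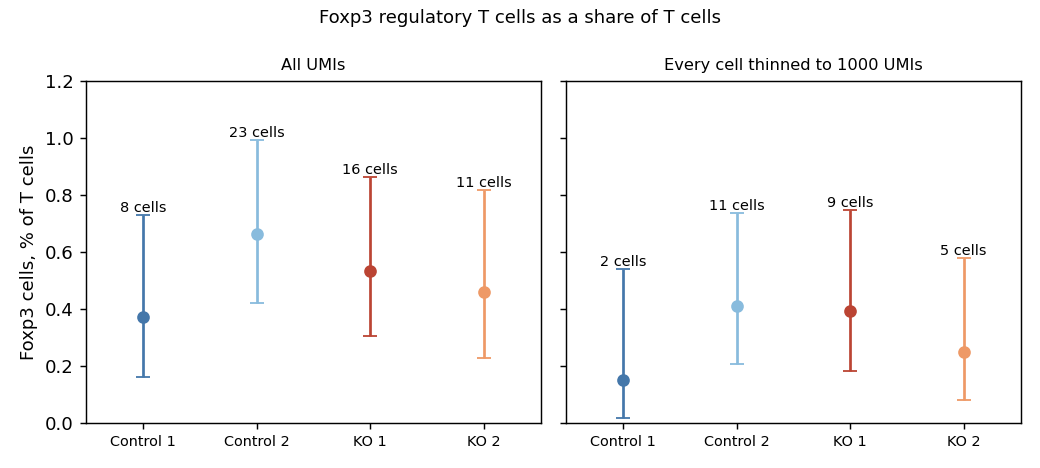
Members as a percentage of T cells in each library, from all UMIs (left) and after every barcode was thinned to 1000 UMIs (right). Points are library values and bars are exact 95% binomial intervals. The intervals of all 4 libraries overlap in both panels, with Control 1 lowest at 0.371% and Control 2 highest at 0.663% in the left panel.

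To see what sets the members apart from other T cells with Cd4, they were compared with 985 Foxp3-negative Cd4 T cells of the same libraries (141, 338, 266 and 240 cells). These had at least 1 UMI of Cd4 and of the T cell receptor genes, and 0 of Foxp3, Cd8a, Cd8b1 and Cd79a. A Cd4 UMI was not asked of the members, so the gates differ in Cd4 as well as in Foxp3. The comparison gate did not separate helper cells from other kinds of T cell that carry Cd4. Counts were summed per library and cell group and compared within libraries with edgeR, without the genes of the rule. Levels are given as CPM, the UMIs of a gene per 1000000 UMIs of the summed cells. Of 1796 genes tested, 86 passed at an adjusted p under 0.05 (4.79%), 42 higher (2.34%) and 44 lower (2.45%) in the regulatory T cells, and DESeq2 called 39. At an unadjusted p under 0.05 there were 293 (16.3%), 130 higher (7.24%) and 163 lower (9.08%). The higher genes included Ikzf2, Ctla4, Tnfrsf4 and Capg, and the lower genes Ccl5, Nkg7, Tcf7 and Satb1.

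Of the 18 genes in a list of regulatory T cell identity, 16 were seen in the members and 8 had counts enough for the test. Of these, 6 were higher and 0 lower, where 2.34% of all genes tested were higher and 2.45% lower. The median log2 difference was 1.63, against 0.012 over all genes tested. Ikzf2 stood at 543, 923, 735 and 1203 CPM in members of Control 1, Control 2, KO 1 and KO 2, and at 318, 129.6, 176 and 76.4 in Foxp3-negative Cd4 T cells. All 4 libraries were higher in the members (log2 difference 2.44 ± 0.29 SE, edgeR adjusted p = 1.29e-07). Ctla4 stood at 815, 1700.3, 1072 and 565 CPM in the members against 597, 307, 330.3 and 118 (1.69 ± 0.26, edgeR adjusted p = 1.25e-05). It too was higher in all 4 libraries, but with Cd4 asked of the members as well the difference was 0.71 and did not pass (edgeR adjusted p = 0.538), nor did it without Control 2 (1.37, edgeR adjusted p = 0.0517).

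A pair of tumour necrosis factor receptors was higher too. Tnfrsf4, which encodes OX40, gave 272, 291, 258 and 98.2 CPM in the members against 81.9, 71.2, 18.1 and 22.3 (2.31 ± 0.39, edgeR adjusted p = 7.60e-05). Tnfrsf18, which encodes GITR, gave 226, 389, 278 and 344 against 169, 109, 85.0 and 70.0 (1.57 ± 0.32, edgeR adjusted p = 0.00142). Both are costimulatory receptors. Capg, an actin-capping protein, was higher at 2.39 ± 0.35, and Nrp1, a semaphorin receptor found on thymus-derived regulatory T cells, at 1.53 ± 0.42 (edgeR adjusted p = 7.27e-06 and 0.0229). Izumo1r, the folate receptor 4 gene, stood at 45.3, 502, 99.3 and 98.2 CPM in the members, with most of its UMIs in Control 2, and did not pass.

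Il2ra, at 4, 19, 8 and 1 UMIs in the members, was too sparse to be tested. Over all libraries that was 32 of 174927 member UMIs against 41 of 2963708 in the Foxp3-negative cells, a ratio of 13.2 (interval 8.06 to 21.5, counting error only). After thinning to 1000 UMIs, Il2ra was seen in 14.8% of 54 members and in 1.41% of 853 Foxp3-negative cells. With the same thinning Ctla4 was seen in 61.1% against 16.6% and Ikzf2 in 51.9% against 7.74%. At least 2 of Il2ra, Ctla4 and Ikzf2 were found together in 38.9% of thinned members and in 3.52% of thinned Foxp3-negative cells. A Foxp3-negative call means only that no Foxp3 UMI was captured, and how many of those cells express the gene was not tested.

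**Figure D3:**
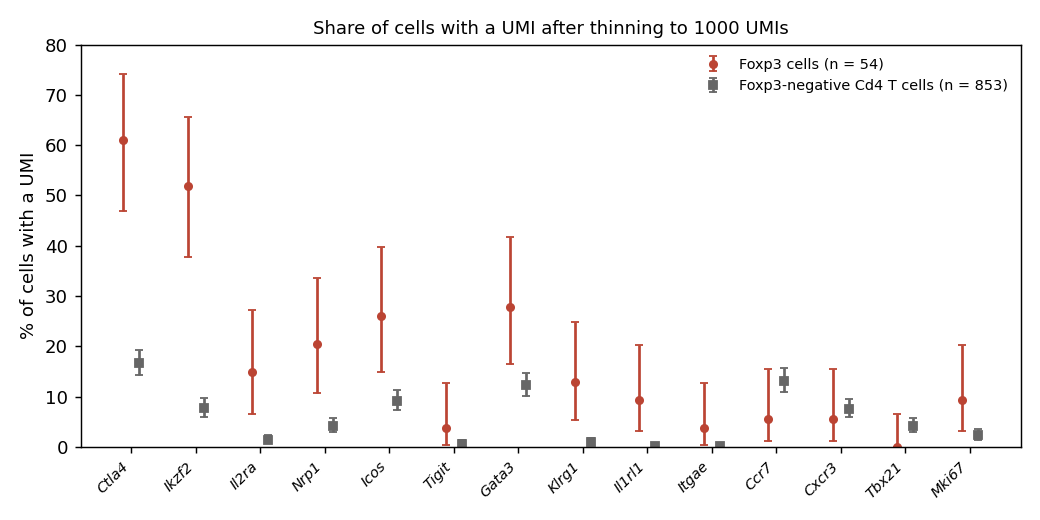
Percentage of cells with at least 1 UMI of each gene after thinning every cell to 1000 UMIs, for 54 members (circles) and 853 Foxp3-negative Cd4 T cells (squares). Bars are exact 95% binomial intervals over pooled cells, which cover counting error only. Ctla4 (61.1% against 16.6%) and Ikzf2 (51.9% against 7.74%) lie far apart. The intervals of Ccr7, Cxcr3, Tbx21, Tigit, Itgae and Mki67 overlap.

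Most tested genes of effector and tissue regulatory T cells were higher. Of the 18 in that list, 11 were tested. Of these, 6 were higher and 1 was lower, where 2.34% of all genes tested were higher and 2.45% lower. The median of the list was 0.997, against 0.012 over all genes tested. The higher genes were Ccr2 (1.85 ± 0.36), a receptor for monocyte chemoattractants, S100a4 (1.39 ± 0.23), Rora (1.31 ± 0.31), Gata3 (1.12 ± 0.31), Lgals1 (0.997 ± 0.21) and S100a6 (0.84 ± 0.22). The lower gene was Id2, an inhibitor of E proteins, at -1.16 ± 0.28 (edgeR adjusted p = 0.00742). Gata3 stood at 769.8, 243, 318 and 221 CPM in the members against 135, 113, 170.0 and 156.996 (edgeR adjusted p = 0.0261). Other tissue markers were too sparse for the test. Klrg1, an inhibitory receptor of terminally differentiated cells, had 4, 3, 4 and 15 UMIs, and its summed rate was 18.4 times that of Foxp3-negative Cd4 T cells (interval 10.1 to 33.4, counting error only). Il1rl1 had 3, 0, 5 and 11 UMIs, a ratio of 18.9 (interval 9.32 to 38.8). Areg, an epidermal growth factor receptor ligand linked to tissue repair, had 0, 8, 26 and 4 UMIs, a ratio of 30.7 (interval 17.5 to 55.0). Itgae, the integrin chain that binds E-cadherin, had 1, 7, 2 and 9 UMIs, a ratio of 53.7 (interval 20.6 to 164). No library was highest in UMIs for all of them: KO 2 led in Klrg1, Il1rl1 and Itgae, and KO 1 in Areg. For Klrg1, 9 of the 15 UMIs of KO 2 lay in 1 cell. By share of members with a Klrg1 UMI, Control 1 led with 4 of 8, against 4 of 11 in KO 2.

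Detection of these markers varied from member to member. At least 1 of Klrg1, Il1rl1, Gata3 and Itgae was seen in 34 of 58 members, and Ccr7 in 4. Both kinds were seen together in 2 members and neither in 22. Of the 13 genes in a list of resting and recirculating T cells, 11 were tested. Of these, 0 were higher and 6 were lower, where 2.34% of all genes tested were higher and 2.45% lower. The median of the list was -1.55, against 0.012 over all genes tested. Tcf7, a transcription factor of resting and memory T cells, gave 45.3, 48.6, 59.6 and 24.6 CPM against 212, 311, 523 and 542 (-3.26 ± 0.41, edgeR adjusted p = 2.91e-07). Satb1, a chromatin organiser, gave 0, 16.2, 39.7 and 172 against 67.5, 282, 469.7 and 720.3 (-3.00 ± 0.40, edgeR adjusted p = 1.41e-06). Ccr7, Bcl2, Lef1 and Igfbp4 were the others that were lower.

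The remaining named genes on the higher side included S100a10, a partner of annexin A2, at 1.76 ± 0.21 (edgeR adjusted p = 1.29e-07). Ifi27l2a, an interferon-induced gene, was higher at 1.52 ± 0.23. Its list of 22 interferon response genes did not move with it. Of the 9 tested, 1 was higher and 0 were lower, where 2.34% of all genes tested were higher. The median of the list was 0.012, as over all genes tested. Serinc3, Glrx (glutaredoxin), Ass1 (argininosuccinate synthase) and Fam129a were higher by 1.31 to 2.08. On the lower side stood Ccl5, Nkg7, Ifng and Ccl4. Ccl5, a chemokine of effector T cells, gave 1268, 972, 278 and 295 CPM in the members against 7338, 6587, 2517 and 1188 (-2.76 ± 0.22, edgeR adjusted p = 2.40e-12). Nkg7, a cytotoxic granule protein, was lower at -2.72 ± 0.38 and Ifng at -2.42 ± 0.46. Ccl4 had 3 UMIs in all members against 958 in Foxp3-negative cells, a rate 18.8 times lower (interval 6.43 to 91.6, counting error only).

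The comparison cells held more myeloid transcript than the members. Lyz2, a myeloid gene, had 2 UMIs in all members and 626 in the Foxp3-negative Cd4 T cells. A list of 10 myeloid genes summed to 0, 10, 5 and 1 UMIs in the members (0 to 162 CPM) and to 158.1 to 1587 CPM in the comparison cells. Its part in the lower genes was not tested beyond a fit on cells with 0 UMIs of markers of other cells, in which all the named genes that could be fitted kept their direction. Of the 20 named genes, 20 kept their direction in every alternative that could fit them, and S100a10, Ikzf2, Capg, Ccl5, Ccl4, Tcf7, Satb1, Nkg7 and Lyz2 passed in all of them. The count of 86 fell to 32 without Control 2 and rose to 188 without Control 1, and it was 50 without KO 1 and 51 without KO 2. It was 38 without the 9 members that held at least 3 UMIs of cell cycle genes, an alternative chosen after seeing the data.

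**Figure D4:**
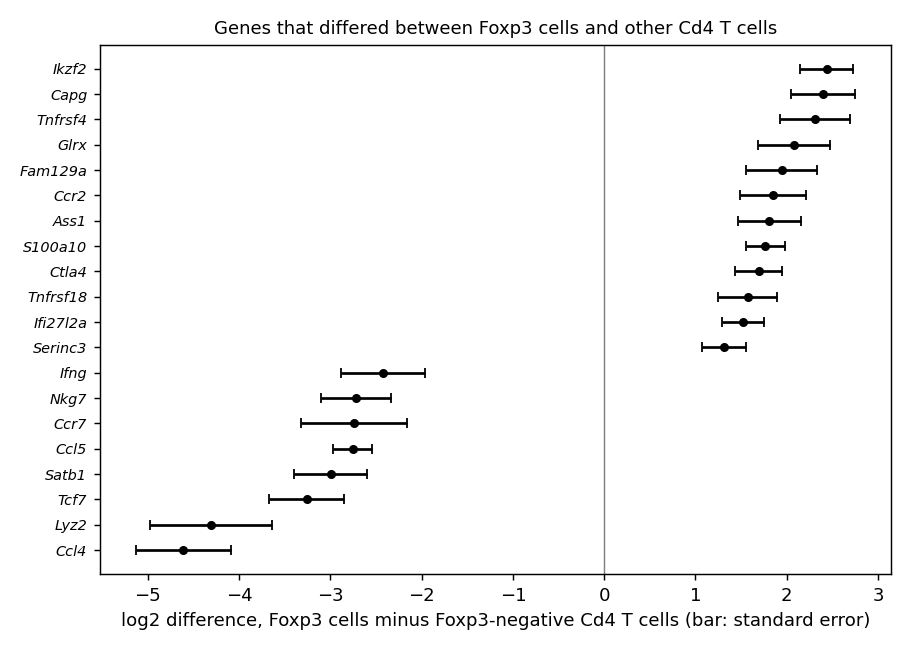
Log2 difference (horizontal axis) of the 20 named genes (vertical axis) between members and Foxp3-negative Cd4 T cells, from edgeR fitted within libraries. Bars are standard errors. The higher genes run from Serinc3 at 1.31 to Ikzf2 at 2.44, and Ifng and Ccl5 lie at -2.42 and -2.76; the values of Ccl4 and Lyz2 rest on 3 and 2 member UMIs.

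Few UMIs of helper cytokines were captured. The members held 0 UMIs of Il17a, Il17f, Il23r, Il4, Il5, Il13 and Il2. Ifng gave 1, 4, 3 and 0 UMIs. Tbx21, the transcription factor of type 1 helpers, was seen in 2 members of Control 1. Cxcr3 was seen in 9. Il10, a suppressive cytokine, gave 0, 4, 0 and 0 UMIs in 2 cells of Control 2, and Tgfb1 gave 4, 10, 14 and 6. With 58 cells, 0 cells with a UMI allows a share of cells with a UMI of up to 5.17%, which sets no limit on cells that express the gene.

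The second question was whether the members of Cyr61 KO livers differed from those of Control livers. Summed per library, 673 genes had counts enough, and 0 passed with edgeR (0%). Genes of the rule were not left out of this fit, so Foxp3 was among those tested. At an unadjusted p under 0.05 there were 48 (7.13%), 27 higher (4.01%) and 21 lower (3.12%) in KO, and DESeq2 called 1. In 243 of the 673 genes (36.1%) both KO libraries lay on one side of both Control libraries. The genes described next are those with the smallest p in each direction, and none of them passed. Of the 243, KO was above in 149 (22.1%) and below in 94 (14%).

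The marker genes of these cells showed no difference that passed. Foxp3 gave 453, 486, 477 and 466 CPM, values that were set in part by the rule and support nothing. Ctla4 gave 815, 1700.3, 1072 and 565, with the KO values overlapping the Control values (log2 difference KO minus Control -0.74 ± 0.45 SE, edgeR adjusted p = 0.745). Ikzf2 gave 543, 923, 735 and 1203, again overlapping (0.25 ± 0.41, edgeR adjusted p = 0.939). Tnfrsf4 gave 272 and 291 CPM in Control and 258 and 98.2 in KO, which did not overlap (-0.69 ± 0.56, edgeR adjusted p = 0.825). Il2ra, not tested by edgeR, was seen in 4 of 8 and 8 of 23 Control members and in 3 of 16 and 1 of 11 KO members. The library shares did not overlap (mean 42.4% in Control and 13.9% in KO; exact permutation p = 0.333, the smallest this design allows, n = 2 each). After thinning they were 25, 20, 12.5 and 0%, with the same p. The summed UMIs were 23 in Control against 9 in KO, a ratio of 0.360 (interval 0.147 to 0.808). This interval covers counting error only, not the spread between cells or libraries. A cell of Control 2 held 7 of the 23 UMIs, and another held 6.

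Such shares were taken for 15 genes, so the order of Il2ra must be read against the others. After thinning, 5 of the 15 did not overlap between groups, a share near the 36.1% of all 673 tested genes whose library CPMs did not overlap, and so no result about these markers. Of the 5, Il2ra, Gata3 and Tigit were lower in KO, and Icos and Cxcr3 higher. None could reach a p under 0.333, and the adjusted value cannot be lower. Without thinning 5 genes did not overlap, but they were Il2ra, Nrp1, Cxcr3, Tigit and Mki67. Cd4, Nrp1, Il1rl1 and Itgae changed sign with thinning. Tigit, an inhibitory receptor, had 1 and 5 UMIs in Control and 0 in both KO libraries. With KO set at a limit of 3 counts over the group, the rate was 2.17-fold lower. This value leaves out the counting error of the Control UMIs, so it is no lower bound.

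Among the genes that leaned higher in KO, Hmgb2, a chromatin protein abundant in dividing cells, gave 815 and 1069 CPM in Control and 3177 and 2381 in KO (1.45 ± 0.31, edgeR adjusted p = 0.140). The groups did not overlap, but 3 of the 58 cells held 51.3% of its UMIs. Its log2 difference ran from 1.18 to 1.73 when each library was left out. Over all 15 alternatives it ran from 0.060 to 1.83, so it was close to absent in at least 1 of them. S1pr1, the receptor by which lymphocytes leave tissues, had 0 and 1 UMIs in Control and 13 and 13 in KO, in 0, 1, 6 and 6 cells. Its summed rate was 23.9 times higher in KO (interval 3.93 to 981, counting error only; edgeR adjusted p = 0.208). Of its UMIs 51.9% lay in 3 cells, and its fitted log2 difference of 4.23 ran from 3.86 to 6.44 when each library was left out. Crip1, a LIM protein, gave 3351, 1522, 7010.1 and 5573 CPM (1.38 ± 0.34, edgeR adjusted p = 0.208). S100a10 gave 2355, 2639.5, 5024 and 5376 (0.98 ± 0.24, edgeR adjusted p = 0.208), and Ifi27l2a gave 2536, 2332, 5322 and 4665 (0.98 ± 0.24, edgeR adjusted p = 0.208). In each of these the KO libraries lay above both Control libraries, and S100a10 was seen in 48 and Ifi27l2a in 47 of the 58 cells.

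Among the genes that leaned lower, AY036118 gave 2672 and 2818 CPM in Control and 794 and 295 in KO (-2.36 ± 0.40, edgeR adjusted p = 0.0829). It is annotated as a long noncoding RNA on chromosome 17 at 39847113 to 39848035 on the minus strand. It was seen in 53 members. The gene lies inside Gm42418, a long noncoding RNA of the opposite strand that gave 19199 and 47382 CPM in Control and 19521 and 13773 in KO (-1.08 ± 0.42, edgeR adjusted p = 0.546). The strand setting of the counting is not given in the sources used here, so the division of reads between them is uncertain. AY036118 fell in the Foxp3-negative Cd4 T cells as well (-2.71 ± 0.45, edgeR adjusted p = 0.00682). The 2 KO differences lay 0.37 ± 0.43 apart (interaction test of edgeR, adjusted p = 0.933). What the lower AY036118 counts in both cell groups reflect was not tested. Ccl5 gave 1268, 972, 278 and 295 CPM (-1.996 ± 0.40, edgeR adjusted p = 0.136), with 62.3% of its UMIs in 3 cells, and it too fell in the Foxp3-negative cells (-1.93 ± 0.32, edgeR adjusted p = 0.00741). Btg1, an antiproliferative factor, gave 2762, 2251, 1350.4 and 982, Hsp90ab1, a chaperone, gave 2853, 1878, 1092 and 1203, and Zfp36l1, an RNA-decay factor, gave 1494, 1393, 695 and 589. Their log2 differences were -1.14, -1.07 and -1.22, and their edgeR adjusted p 0.217 to 0.271.

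**Figure D5:**
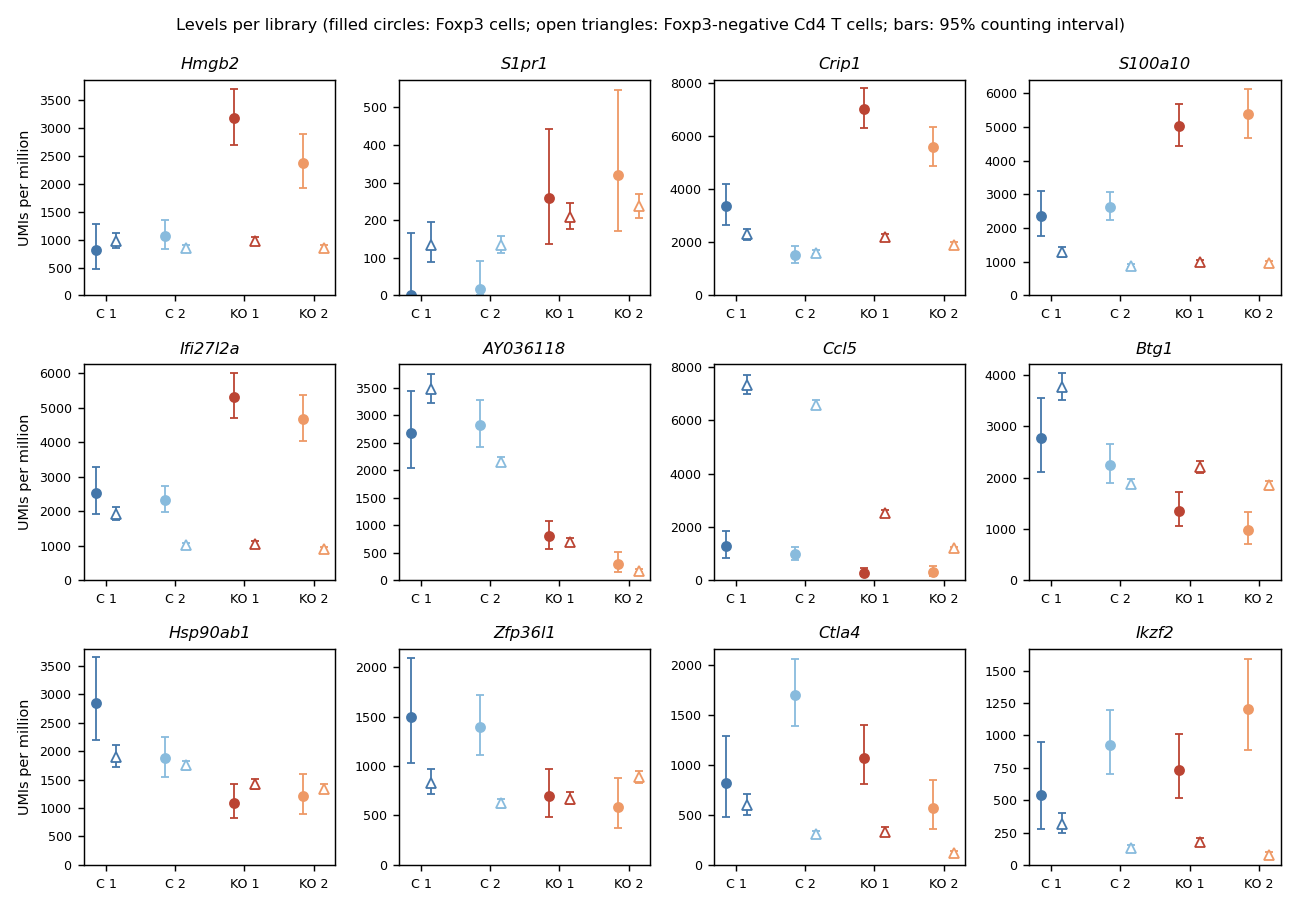
CPM of the 10 genes with the smallest p in the members, and of Ctla4 and Ikzf2, in each library (horizontal axis; C is Control). Filled circles are members, open triangles Foxp3-negative Cd4 T cells, and bars exact 95% Poisson intervals. In the first 10 panels both KO circles lie on one side of both Control circles, as with Hmgb2 at 3177 and 2381 against 815 and 1069, while Ctla4 and Ikzf2 overlap.

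The calls differed when a few cells were left out. Members with at least 3 UMIs over 12 cell cycle genes numbered 1, 2, 4 and 2 (12.5, 8.70, 25 and 18.2% of the members). Over all members these genes summed to 408, 777, 3614 and 540.1 CPM, with KO 1 standing apart. Without these 9 members, an alternative chosen after seeing the data, 368 genes could be tested and 8 passed with edgeR, 6 higher and 2 lower. Higher were Ifi27l2a (1.86 ± 0.34, edgeR adjusted p = 0.00141), Crip1 (1.67 ± 0.36), S100a10 (1.24 ± 0.31), S100a4 (1.29 ± 0.32), Vamp8 (2.12 ± 0.57) and Itgb1 (2.30 ± 0.62). Lower were AY036118 (-2.65 ± 0.44) and Ccl5 (-1.77 ± 0.44). Over the 15 alternatives AY036118 passed in 7 and Crip1 in 4. Without Control 1, 11 genes passed, without KO 1, 7, without KO 2, 2, and without Control 2, 0.

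By pathway, 0 genes of any list passed in the members. Of 9 effector and tissue genes tested, 4 were positive and 5 negative. Of 15 immediate early and heat shock genes, which respond to tissue handling, 11 were negative (median -0.57), against 349 of 673 over all genes (median -0.014). Of the 15, Dusp1, Dusp2, Hsph1 and Rgs1 lay lower in both KO libraries than in both Control libraries and 0 lay higher, where 14% of all genes lay lower and 36.1% did not overlap in either direction. The nuclear factor kappa B list had 13 members and 2 tested genes: Nfkbia stood at 860.4, 696, 1112 and 172 CPM and Tnfaip3 at 679, 534, 933 and 957. Syk, a kinase that the study's title names in macrophages, had 1 UMI in all members, in Control 1. Of the 7 chemokine receptor and adhesion genes tested, 5 were positive and 2 negative. Itgal, a chain of the integrin LFA-1, gave 226, 324, 119 and 172 CPM (-1.08 ± 0.55, edgeR adjusted p = 0.738). Itgb7, a gut-homing integrin chain, gave 226, 291, 477 and 761 CPM (1.10 ± 0.45, edgeR adjusted p = 0.546). Klf2, a transcription factor of resting T cells, gave 634, 243, 1092 and 638 (1.10 ± 0.51, edgeR adjusted p = 0.710).

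Whether a KO difference was larger in the regulatory T cells than in other Cd4 T cells was tested as an interaction over both cell groups. Of 1796 genes, 2 passed with edgeR (0.111%), both higher, and DESeq2 called 0, while 116 had an unadjusted p under 0.05 (6.46%), 61 higher (3.4%) and 55 lower (3.06%). The KO difference of Ifi27l2a was more positive in the members than in the Foxp3-negative cells (interaction 1.52 ± 0.37, edgeR adjusted p = 0.0368). In the Foxp3-negative cells the gene stood at 1927 and 1022 CPM in Control and at 1059 and 894 in KO. Of the 9 interferon response genes tested, the interaction was positive in 5 and negative in 4 (median 0.065). Hist1h2ap, a histone gene of dividing cells, had 1, 2, 62 and 2 UMIs in the members against 120.5, 130.5, 110.1 and 52.0 CPM in the Foxp3-negative cells (interaction 4.52 ± 0.79, edgeR adjusted p = 2.25e-05). Of its 67 member UMIs 41 lay in 1 cell of KO 1 (61.2%). Without KO 1 no gene passed, and Hist1h2ap could not be fitted. It did not pass without Control 1 or Control 2 (edgeR adjusted p = 0.859 and 0.432). Ifi27l2a kept a positive value but did not pass without Control 1, KO 1 or KO 2 (1.25, 1.51 and 1.56; edgeR adjusted p = 0.323, 0.784 and 0.819). Without the 9 members of 3 or more cell cycle UMIs 0 genes passed, at 1653 tested, while the value of Ifi27l2a was larger there (2.42, edgeR adjusted p = 0.163).

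The comparison cells themselves shifted between groups. A UMI of Ccr7 was seen in 3 of 141 and 50 of 338 Foxp3-negative Cd4 T cells of Control (2.13 and 14.8%) and in 80 of 266 and 98 of 240 of KO (30.1 and 40.8%). Of 7080 genes tested in them, 45 passed (0.636%), 8 higher (0.113%) and 37 lower (0.523%) in KO, and 702 had an unadjusted p under 0.05 (9.92%; 4.93% higher and 4.99% lower). The count was 165 without Control 1, 116 without Control 2, 101 without KO 1 and 66 without KO 2. Pdcd1 and Lag3, inhibitory receptors, were lower by -3.33 ± 0.45 and -3.06 ± 0.48, Il10 by -3.65 ± 0.59 and Tnfrsf4 by -1.90 ± 0.31, while Ccr7 was higher by 2.13 ± 0.31 (edgeR adjusted p from 0.00156 to 0.00681). In the members, Pdcd1 gave 2, 3, 1 and 0 UMIs and Lag3 0, 2, 0 and 0, too few to test. Genes of fibroblasts and myeloid cells were among the lower genes of the comparison cells, with their summed fibroblast list at 91.5 and 162 CPM in Control and 1.39 and 2.12 in KO. Their part in these differences was not tested. When the comparison cells were cut to the 754 with 0 UMIs of Ccr7, an alternative chosen after seeing the data, 0 genes passed the interaction and Ifi27l2a gave 1.41 (edgeR adjusted p = 0.0716), while 54 genes still set the members apart.

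Markers of other cells ranged from 0 in the members to the level of their own marker genes. All 5 genes of a gamma-delta T cell list were at 0 in all 4 libraries, and the hepatocyte list gave 0, 1, 0 and 0 UMIs. The list of natural killer and innate lymphoid genes gave 4, 3, 2 and 0 UMIs. The B cell list of 10 genes gave 20, 76, 43 and 38 UMIs (906, 1231, 854 and 933 CPM), of which 83 UMIs, in 31 cells, were of Ighm. The same list gave 1648, 885, 594 and 481 CPM in the Foxp3-negative cells, so the members lay above them in 3 of 4 libraries. Ighm was higher in the members than in the Foxp3-negative cells (1.53 ± 0.30, edgeR adjusted p = 0.000791), and its part in the other results was not tested. When markers of B cells, myeloid cells, natural killer cells and gamma-delta T cells were also asked to be at 0, 52 members remained, and 2 genes, AY036118 and Dusp1, passed as lower in KO.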

How the data were processed

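Droplet libraries (10x Genomics) of liver cells, 2 Control and 2 Cyr61 KO, were analysed. The deposited tables of the authors hold unnormalised UMI counts for each barcode; the submitters' processing notes name Cell Ranger 3.1.0 and the build mm10. The lowest total was 500 UMIs per barcode. The 2 libraries of each group differed beyond sampling noise (chi-square per degree of freedom 42.5 and 20.7). Library totals were 8290677, 20537236, 17187561 and 17925516 UMIs. Groups and replicate numbers came from the labels. The members, the gene lists and the tests were chosen with earlier results of these data known.

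Counts were summed per library and cell group and fitted with the quasi-likelihood test of edgeR 4.0.16, after filterByExpr and with TMM factors. Calls had a Benjamini-Hochberg adjusted p under 0.05 over all genes tested. Members were compared with Foxp3-negative Cd4 T cells with the library as a block, and the interaction used the same blocks. SE is the log2 difference divided by the square root of F. Shares were tested with exact permutation tests over libraries (scipy 1.17.1), with exact binomial and Poisson intervals at 95%. Thinning drew 1000 UMIs per barcode without replacement. No doublets were removed in the main values, and leaving out the highest Scrublet scores (scanpy 1.11.5) was an alternative. All scripts for many genes were tested on simulated data. R 4.3.3 and Python 3.11.15 were used. Gene coordinates come from GENCODE M21 (99.6% of 32285 identifiers matched).

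Named genes: between groups, the 5 higher and 5 lower of smallest p where fewer than 5 passed; against Foxp3-negative cells, the 12 higher and 8 lower of smallest p that passed with 1 sign in all libraries; interaction genes that passed; up to 4 each per list by p and by level; and Foxp3, Il2ra, Ctla4, Cd4 and Ccn1. T cell receptor, immunoglobulin, predicted and mitochondrial genes were not named by the rule. Gm42418, Izumo1r, Ighm, Pdcd1, Lag3, Syk, Vamp8 and the low-count genes described by UMIs were chosen after their values were seen. Alternatives were DESeq2 1.42.0, relative log expression factors, no filter on low counts, a replicate block, stricter cell filters and gates, other thinning depths, and each library left out. Some listed genes are not reported here.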

Additional observations from a re-analysis of the deposited data

Results flagged for a closer look

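For 2 genes the KO difference in the regulatory T cells differed from that in Foxp3-negative Cd4 T cells by the interaction test of edgeR. Hist1h2ap differed by 4.52 on the log2 scale, with 62 of its 67 member UMIs in KO 1. Ifi27l2a differed by 1.52, with both KO libraries above both Control libraries in the members (5322 and 4665 against 2536 and 2332 CPM). With DESeq2 the values were about as large (4.02 and 1.54), but neither passed (adjusted p = 0.591 and 0.467). Over the alternatives that could fit them, Hist1h2ap passed in 7 of 12 and Ifi27l2a in only 4 of 16. Groups of 2 are too small for a check of single outlying libraries.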

How the results depend on the processing

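The count of genes that passed between groups in the members was 0, and became 1 with DESeq2, 6 with no filter on low counts, 2 with 0 UMIs of other cells' markers, 8 without members of 3 or more cell cycle UMIs and 0 to 11 without each library. Against Foxp3-negative Cd4 T cells it was 86, and became 39 with DESeq2, 233 with no filter and 15 with Foxp3 of 2 or more UMIs. With Cd4 asked of the members, and so without Control 1, it was 110 of 4381 genes tested (17 higher and 93 lower). It was 35 with 1000 to 4000 UMIs, 54 with comparison cells that lack Ccr7 UMIs, 38 without members of 3 or more cell cycle UMIs and 32 to 188 without each library. For the interaction it was 2, and became 0 with DESeq2, with the highest Scrublet scores left out, with Cd4 asked of the members, with comparison cells that lack Ccr7 UMIs and without the members of 3 or more cell cycle UMIs. It was 1 with relative log expression factors and with at least 1000 UMIs, 6 with Foxp3 of 2 or more UMIs, 5 with 1000 to 4000 UMIs and 0 to 3 without each library. Between groups in the Foxp3-negative cells it was 45, and became 22 with DESeq2, 166 with no filter, 29 without the highest Scrublet scores and 66 to 165 without each library. With the replicate number as a block it was 2 in the members and 83 in the Foxp3-negative cells. Same-numbered libraries deviated together with r = 0.056 and 0.029. With 2 libraries per group this cannot show whether libraries were paired, and the numbers were used only as names. Where 1 library was left in a group it was assumed to vary like the others. The share difference (KO minus Control, percentage points) was -0.0212 of T cells, 0.123 with Foxp3 of 2 or more UMIs, 0.0184 with Cd4 asked and -0.167 to 0.125 without each library. Of kept cells it was -0.0266, then 0.0517, 0.00101 and -0.104 to 0.0508. Thinned to 1000 UMIs it was 0.0405, at 800 UMIs -0.0604, at 1500 UMIs -0.0164, and -0.0907 to 0.172 without each library. The number of marker shares that did not overlap was 5, and 6 to 11 without each library. Single genes that changed sign between groups in the members, none of them called, were Foxp3 (0.12 with no filter, 0.087 with Cd4 asked, 0.055 without cycling members, -0.15 to 0.018 without each library), Ikzf2 (-0.063 without other cells' markers, -0.10 to 0.77 without each library), Il7r (0.73 with Cd4 asked), Nfkbia (0.42 with Cd4 asked, 0.18 without cycling members, -2.25 to 0.50 without each library), Rgs1 (0.42 with Cd4 asked), Cd6 (0.045 with no filter, -0.59 to 1.47 without each library) and Il2rg (0.066 with no filter, 0.11 with Cd4 asked, 0.016 without other cells' markers, 0.094 without cycling members, -0.39 to 0.034 without each library). Capg (-0.038 to 0.99), Gata3 (-1.53 to 0.066), Pim1 (-0.27 to 0.92) and Mcl1 (-0.067 to 0.64) changed sign without 1 library. The causes were not tested, and the values of Foxp3 were set in part by the rule. With Cd4 asked, Control 1 held 0 members and left those fits. Limits are the 2 libraries per group, the 58 cells, which gave 673 testable genes, and the depth, at which most members were called from 1 Foxp3 UMI.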
